A study of Mus musculus with 11 samples.

Results

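Voltage-gated sodium and calcium channel genes were followed across 4 kinds of green fluorescent cells sorted from the mouse dentate gyrus, the hippocampal region that goes on making granule neurons after birth. A gene was counted when an array probe set listed with its symbol alone matched Scn, digits and a or b, or began with Cacna1, Cacna2d, Cacnb or Cacng. This gave 35 genes of the 19938 genes with a probe set of their own: 8 sodium channel pore genes, 3 sodium channel beta genes, 10 calcium channel pore genes, 4 alpha2delta genes, 3 calcium channel beta genes and 7 gamma genes. Of the 35, 31 passed a filter on low values that kept 16527 genes in all, and tests were run on these 31. The 4 others, Scn7a, Scn9a, Scn10a and Scn11a, are sodium channel pore genes known from glia of the salt-sensing organs (Scn7a) and from peripheral pain-sensing neurons (the other three), and their line means lay between 4.95 and 6.09 on the log2 scale. Other genes of these families are not analysed here.

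Voltage-gated sodium channels open when the membrane is depolarised and carry the rising phase of the action potential. One large pore protein forms the channel, and small beta proteins set its gating and its place in the membrane. Voltage-gated calcium channels turn depolarisation into calcium entry, which drives transmitter release, gene expression and growth of young neurons. Their pore protein works with an alpha2delta protein outside the membrane and a beta protein in the cytosol, both of which raise the number of channels at the surface. Most gamma genes encode TARPs, membrane proteins best known as partners of AMPA-type glutamate receptors.

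The mice were at postnatal day 35 and carried 1 of 4 GFP reporters: PomcGFP (2 arrays), a transgene for pro-opiomelanocortin that is known to label newborn granule neurons; kiTbr2GFP (3 arrays), a knock-in of GFP at Eomes, the gene of the progenitor factor Tbr2; tgTbr2GFP (3 arrays), a BAC transgene of Eomes; and NesGFP (3 arrays), a transgene for Nestin, a filament protein of stem cells. No other allele, treatment or strain is given in the labels. Dorsal and ventral dentate gyrus was dissected from slices, dissociated and sorted by flow cytometry, up to about 5000 cells per group, and the RNA was amplified before it was put on Affymetrix Mouse Gene 1.0 ST arrays. The cells had fluoresced when sorted, so each line can hold every cell type in which its reporter is on or GFP protein persists.

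Levels are log2 values made with RMA, a method that corrects the background, normalizes the arrays and summarises the probes of a set. A step of 1 is a doubling, differences are the first-named line minus the second, and "the Tbr2 lines" means the average of kiTbr2GFP and tgTbr2GFP. All tests were two-sided moderated tests by limma on the 11 arrays, with p-values adjusted after Benjamini and Hochberg over 16527 genes and a threshold of 0.05. The labels do not tie the arrays to separate animals. The p-values therefore reflect the spread from array to array, possibly a technical one, and the number of arrays limits the precision. In sorted pools, a lower value from fewer cells of a type and one from less RNA per cell cannot be told apart.

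Array medians lay between 7.0 and 7.15, and arrays of the same line correlated across genes with r between 0.939 and 0.985. Eomes itself was higher in the Tbr2 lines than in NesGFP by 1.28 and lower in PomcGFP than in the Tbr2 lines by a difference of -2.56 (limma adjusted p 7.76e-05). Lists of cell type genes moved with the lines. All 10 stem cell and astrocyte genes, 7 endothelial, 7 mural, 6 oligodendrocyte precursor and 5 oligodendrocyte genes were lower in the Tbr2 lines than in NesGFP. In the other direction all 6 intermediate progenitor genes, 4 of 6 immature neuron genes and 4 of 6 dividing cell genes were higher in the Tbr2 lines. Of all genes 29.1% were lower and 19.8% higher in that comparison. The average of the intermediate progenitor genes was 8.35 to 8.42 in PomcGFP, 9.70 to 9.85 in kiTbr2GFP and 9.31 to 9.55 in tgTbr2GFP, against 7.90 to 8.28 in NesGFP. The average level of the 7 endothelial genes was 6.83 to 7.28 on the PomcGFP arrays, 6.14 to 6.43 on the kiTbr2GFP arrays and 6.20 to 7.25 on the tgTbr2GFP arrays, against 10.03 to 10.16 on the NesGFP arrays, where vessel genes thus stood beside stem cell genes. PomcGFP was higher than the Tbr2 lines in 5 of 8 mature granule neuron genes, 2 of 5 oligodendrocyte genes and 3 of 6 microglia genes. The share higher over all genes was 2.0%. The part of these cell type lists in the results below was not tested.

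By limma's moderated F test over the 4 lines 21 of the 31 channel genes (67.7%) differed between lines, where 43.4% of all genes tested did. In the Tbr2 lines against NesGFP, 14 were higher and 4 lower, where 19.8% of all genes were higher and 29.1% lower. The median difference was 0.27 over the 31 channel genes and -0.02 over all genes, and without the first NesGFP array the channel genes' median was 0.14. In PomcGFP against NesGFP, 15 were higher, where 15.9% of all genes were higher, and 0 were lower, where 24.0% of all genes were lower. At an unadjusted limma p under 0.05 those counts were 15 and 3, and the median difference was 0.64 over the channel genes, or 0.33 without the third NesGFP array and 0.39 with a replicate block. In PomcGFP against the Tbr2 lines, 4 were higher and 1 lower, where 2.0% of all genes were higher and 1.73% lower, with a median of 0.21 against 0.02 over all genes. These comparisons share arrays, and their counts are not independent of each other.

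**Figure D1:**
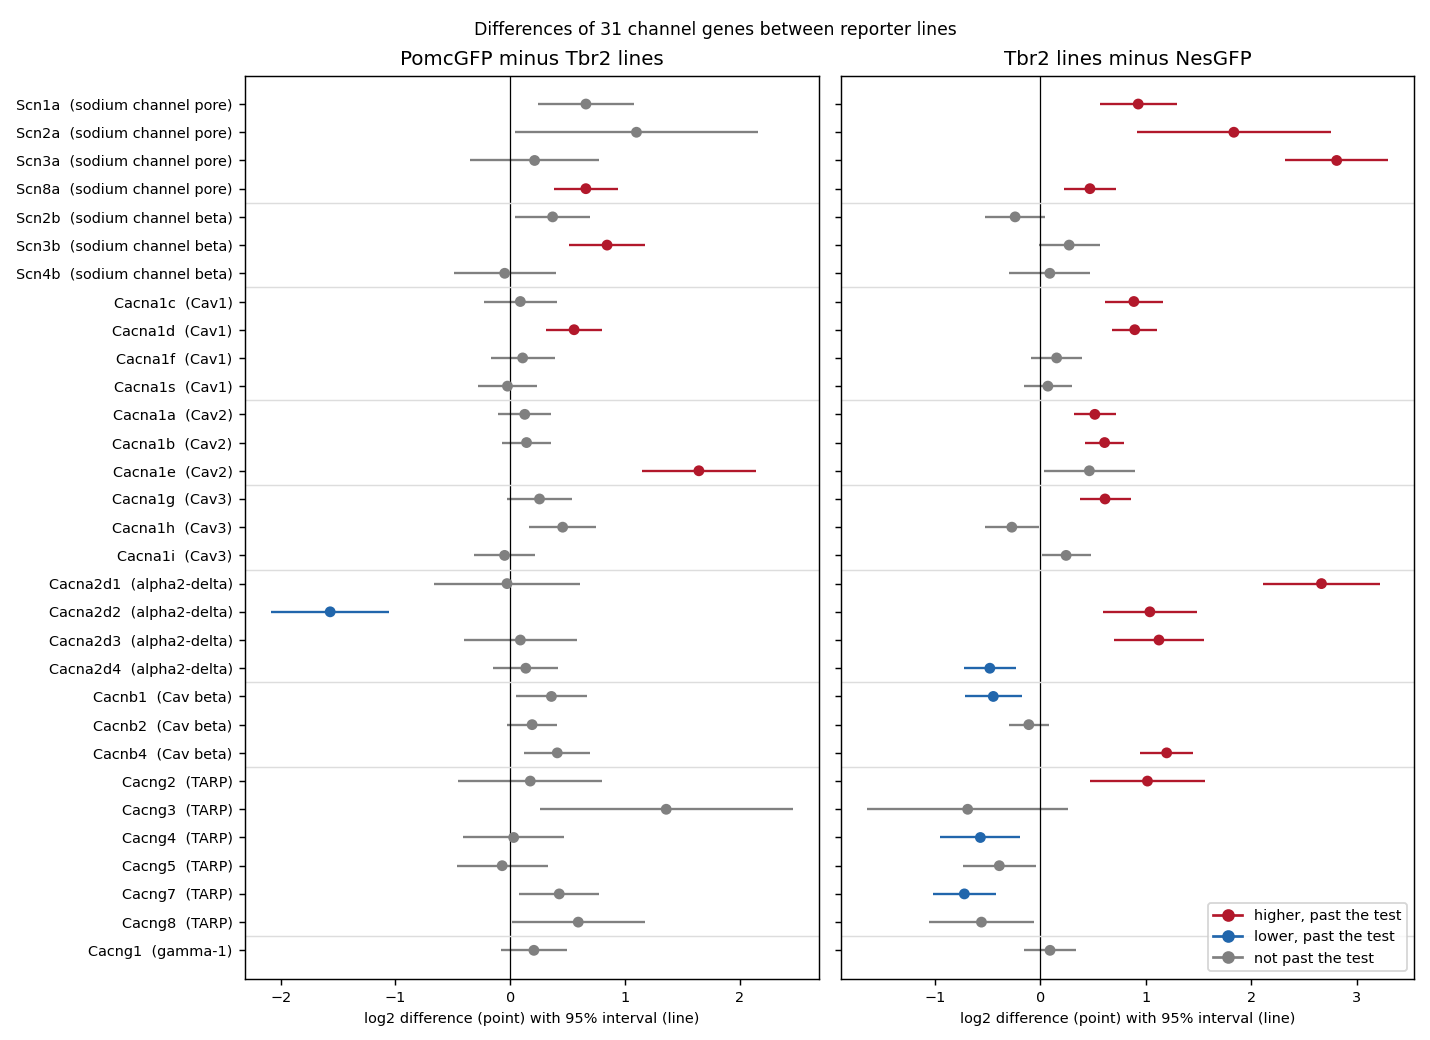
Differences of the 31 channel genes between lines, in log2 units, by class. The left panel plots PomcGFP minus the Tbr2 lines and the right panel the Tbr2 lines minus NesGFP, with points for the difference and lines for its 95% interval, red or blue where the gene passed the test. On the right the red points farthest from 0 are Scn3a (2.81), Cacna2d1 (2.67) and Scn2a (1.84), and on the left Cacna1e is red at 1.64 and Cacna2d2 blue at -1.57.

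The 4 measured sodium channel pore genes, Scn1a, Scn2a, Scn3a and Scn8a, were each higher in the Tbr2 lines than in NesGFP, by a median of 1.38, and each higher in PomcGFP than in NesGFP, by a median of 2.26. Of all genes 19.8% and 15.9% were higher in these comparisons. The 4 form the main pores of central neurons. Scn3a, the pore known for its high level in the embryonic and newborn brain, showed the largest difference of all 31 channel genes between the Tbr2 lines and NesGFP. Its level was 9.20 and 9.08 on the PomcGFP arrays, 8.76, 8.62 and 8.59 in kiTbr2GFP and 9.00, 9.57 and 9.03 in tgTbr2GFP, against 6.62, 6.30 and 5.43 in NesGFP. Every array of the other lines lay far above the highest NesGFP array. The Tbr2 lines exceeded NesGFP by 2.81 ± 0.22 (SE), a 7.02-fold difference with a limma adjusted p of 1.46e-06. PomcGFP and the Tbr2 lines overlapped, with a difference of 0.21 ± 0.26 (limma adjusted p 0.908) and a 95% interval from -0.35 to 0.78.

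Scn2a, the pore of the axon initial segment in young excitatory neurons, was 11.76 and 11.89 in PomcGFP, 10.53, 10.56 and 10.06 in kiTbr2GFP and 11.08, 10.98 and 11.12 in tgTbr2GFP, against 7.89, 8.35 and 10.42 in NesGFP. One NesGFP array reached the kiTbr2GFP range while the other two stayed well below it. The difference between the Tbr2 lines and NesGFP was 1.84 ± 0.42 (SE; limma adjusted p 0.00345), with overlapping arrays. Both PomcGFP arrays lay above all 6 Tbr2 arrays, yet the difference of 1.10 ± 0.48 did not pass (limma adjusted p 0.351). Without the third NesGFP array the same difference of 1.10 had a limma adjusted p of 0.0025.

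The array carries 14 probe sets for Scn2a, and the one with the highest mean stands for the gene above. Tested singly among 18097 probe sets, 12 of the 14 were higher in the Tbr2 lines than in NesGFP (20.3% of all probe sets were higher and 28.7% lower), and all 14 differences lay above 0, from 0.12 to 2.35. For PomcGFP against the Tbr2 lines, 3 of the 14 were higher (1.90% of all probe sets were higher and 1.81% lower). All 14 had a higher mean in PomcGFP than in the Tbr2 lines, by 0.64 to 1.75 with a median of 1.07. All 14 were also lower in kiTbr2GFP than in tgTbr2GFP on average. Averaging the 14 into 1 value gave a difference of 1.11 between PomcGFP and the Tbr2 lines with a limma adjusted p of 0.000614, and one of -0.79 between kiTbr2GFP and tgTbr2GFP with a limma adjusted p of 0.0143. Probe sets of 1 gene read the same RNA and are not replicates.

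**Figure D2:**
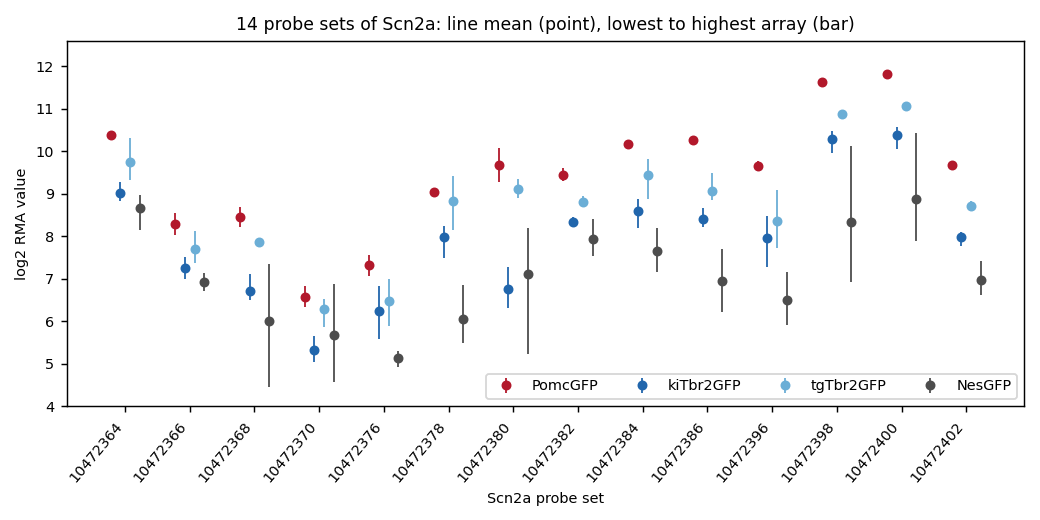
Log2 RMA level of the 14 Scn2a probe sets by line, with points for the line mean and bars from the lowest to the highest array. PomcGFP has the highest mean in all 14 probe sets, and the NesGFP bars are long where 1 array stands apart.

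Scn1a, best known as the pore of inhibitory interneurons, was 7.66 and 7.48 in PomcGFP, 6.65, 6.81 and 6.83 in kiTbr2GFP and 7.55, 6.81 and 6.81 in tgTbr2GFP, against 6.13, 6.08 and 5.74 in NesGFP. All NesGFP arrays were below all others, and 1 tgTbr2GFP array reached the PomcGFP level. Between the Tbr2 lines and NesGFP the difference was 0.93 ± 0.17 (SE; limma adjusted p 0.000667). Between PomcGFP and the Tbr2 lines it was 0.66 ± 0.19 and did not pass (limma adjusted p 0.0963), but without the first tgTbr2GFP array it was 0.78 with a limma adjusted p of 0.00792. Of 5 measured interneuron genes 2 were lower in the Tbr2 lines than in NesGFP by limma, where 29.1% of all genes were lower. In PomcGFP against NesGFP 1 was higher, Gad1 by 0.76 (limma adjusted p 0.00174), and 1 lower, Pvalb with a difference of -1.10 (limma adjusted p 0.00922). There 15.9% of all genes were higher and 24.0% lower.

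Scn8a, the pore that predominates in axons of mature neurons, was higher in the Tbr2 lines than in NesGFP and higher again in PomcGFP than in the Tbr2 lines. It was 8.22 and 8.42 in PomcGFP, 7.54, 7.63 and 7.60 in kiTbr2GFP and 7.93, 7.63 and 7.63 in tgTbr2GFP, against 7.38, 7.03 and 7.17 in NesGFP. Neither comparison had overlapping arrays. The Tbr2 lines minus NesGFP gave 0.47 ± 0.11 (SE; limma adjusted p 0.00421), and PomcGFP minus the Tbr2 lines gave 0.66 ± 0.13 (limma adjusted p 0.0151).

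These genes lie close together. In RefSeq's mouse assembly GRCm38.p6 Scn3a and Scn2a are adjacent protein-coding genes on chromosome 2, and Scn1a, Scn9a and Scn7a are adjacent to each other after 3 other genes. Scn3a, Scn2a and Scn1a differed between lines by the F test, while Scn9a and Scn7a stayed under the filter. Some probe sets are listed with several of these symbols, and these 3 were left out of all tests. One of them, shared by Scn3a and Scn1a, had line means of 8.84 in PomcGFP, 8.48 in kiTbr2GFP and 8.87 in tgTbr2GFP, against 6.83 in NesGFP. Another, shared by Scn9a and Scn3a, had 9.64, 8.63 and 9.52 in the same order, against 6.58 in NesGFP. The last, shared by Scn2a, Scn9a and Scn3a, did not set NesGFP apart, with 4.80, 4.43 and 5.27 against 4.83. These means all lay under the 25th percentile of every array, 5.90 to 6.20. The NesGFP arrays ran from 3.445 to 6.95, so values this low say little on the lines.

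Among the sodium channel beta genes, Scn3b, a beta subunit of the developing and adult brain, was the 1 that was higher in PomcGFP than in the Tbr2 lines. Its level was 10.33 and 10.31 in PomcGFP, 9.27, 9.25 and 9.24 in kiTbr2GFP and 9.54, 9.84 and 9.71 in tgTbr2GFP, against 8.86, 9.52 and 9.22 in NesGFP. Both PomcGFP arrays were above every other array, and the Tbr2 and NesGFP arrays overlapped. PomcGFP exceeded the Tbr2 lines by 0.84 ± 0.15 (SE; limma adjusted p 0.00985) and NesGFP by 1.12 ± 0.17 (limma adjusted p 0.000342), while the Tbr2 lines and NesGFP differed by 0.27 ± 0.13 (limma adjusted p 0.108). Scn2b, a disulfide-linked beta subunit, averaged 7.61 ± 0.14 in PomcGFP (SD, n = 2), 6.98 ± 0.29 in kiTbr2GFP and 7.50 ± 0.08 in tgTbr2GFP (SD, n = 3 each), against 7.48 ± 0.17 in NesGFP (SD, n = 3). It passed the F test (limma adjusted p 0.0218), with kiTbr2GFP the lowest line. Scn4b, whose tail is known from resurgent sodium current, had line means from 6.22 to 6.34 and did not pass (limma adjusted p 0.957). Of the 3, 0 passed in the Tbr2 lines against NesGFP by limma, and 0 had an unadjusted p under 0.05. Among all genes 19.8% passed there as higher and 29.1% as lower.

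**Figure D3:**
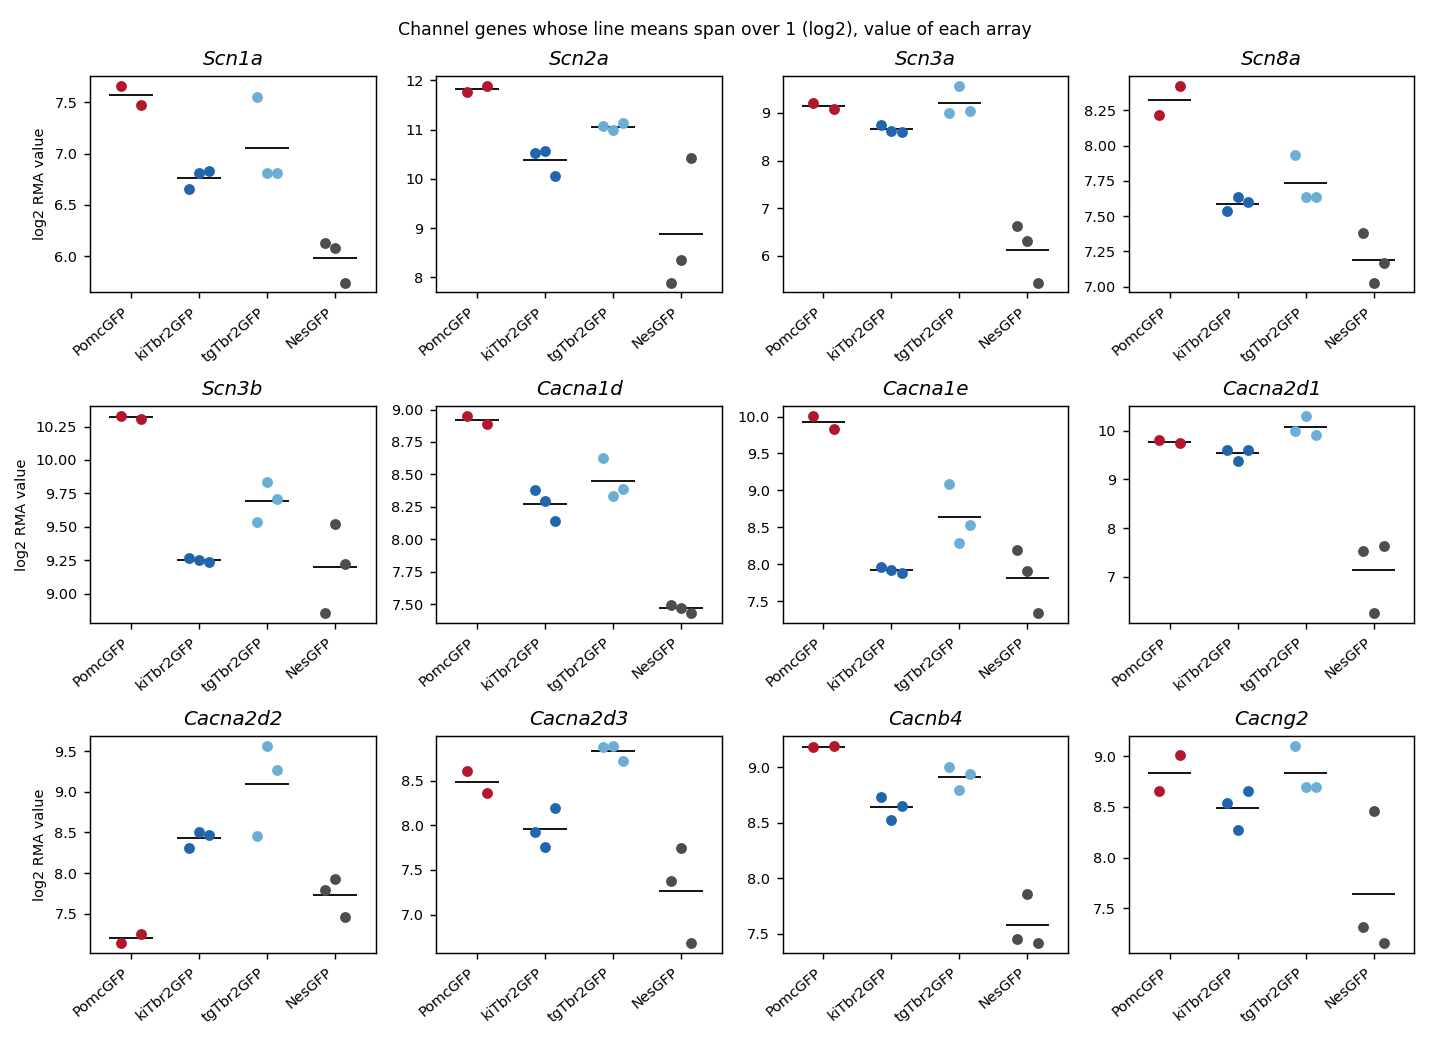
Log2 RMA level of each array for the 12 channel genes that passed the F test and whose line means spanned more than 1 log2 unit. Columns of points run PomcGFP, kiTbr2GFP, tgTbr2GFP and NesGFP, with a bar at the line mean and a separate axis for each gene. Scn3a, Cacna2d1 and Cacnb4 separate NesGFP from the rest, Cacna1e and Scn3b separate PomcGFP upward, and Cacna2d2 is highest in the 2 Tbr2 lines.

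Of the 10 calcium channel pore genes, 5 were higher in the Tbr2 lines than in NesGFP and 6 in PomcGFP than in NesGFP. The shares higher over all genes were 19.8% and 15.9%. The L-type pores are known to couple activity to gene expression. Cacna1c and Cacna1d, the L-type pores of brain and heart, were higher in the Tbr2 lines than in NesGFP, by 0.89 ± 0.12 (SE; limma adjusted p 0.000115) and by 0.90 ± 0.10 (limma adjusted p 1.47e-05). Cacna1s, the skeletal muscle pore, and Cacna1f, the retinal pore, had line means between 6.25 and 6.51 and did not pass the F test (limma adjusted p 0.939 and 0.452). Cacna1c averaged 8.55 ± 0.05 in PomcGFP (SD, n = 2), 8.37 ± 0.17 in kiTbr2GFP and 8.56 ± 0.10 in tgTbr2GFP (SD, n = 3 each), against 7.57 ± 0.27 in NesGFP (SD, n = 3).

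Cacna1d, which opens at lower voltage than Cacna1c, rose at both comparisons. It was 8.95 and 8.89 in PomcGFP, 8.38, 8.30 and 8.14 in kiTbr2GFP and 8.63, 8.33 and 8.39 in tgTbr2GFP, against 7.49, 7.47 and 7.43 in NesGFP. The arrays fell into 3 levels without overlap, with PomcGFP on top. PomcGFP exceeded the Tbr2 lines by 0.56 ± 0.11 (SE; limma adjusted p 0.0176). Cacna1d and Scn8a were the 2 channel genes higher at both comparisons, a pattern held by 0.369% of all genes.

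Cacna1e, the R-type pore of dendrites and presynaptic terminals, had the largest difference between PomcGFP and the Tbr2 lines among the 31. It was 10.01 and 9.84 in PomcGFP, 7.96, 7.92 and 7.88 in kiTbr2GFP and 9.09, 8.29 and 8.53 in tgTbr2GFP, against 8.19, 7.91 and 7.34 in NesGFP. Both PomcGFP arrays stood above all others, the tgTbr2GFP arrays came next, and the kiTbr2GFP arrays lay within the NesGFP range. The first tgTbr2GFP array, highest of its line for Cacna1e, Scn1a and Scn8a, also averaged 9.18 over the oligodendrocyte genes. The other arrays of that line had 7.26 and 7.62. For the endothelial genes it had 7.25, against 6.20 and 6.57. Scn3a and Cacna2d2 were lowest of the line on that array. The part of these lists in the tgTbr2GFP levels was not tested. PomcGFP exceeded the Tbr2 lines by 1.64 ± 0.23 (SE), a 3.13-fold difference with a limma adjusted p of 0.00194. For the Tbr2 lines against NesGFP the difference was 0.47 ± 0.20 (limma adjusted p 0.0689), and it passed in 6 of the alternatives run. Mature granule neuron genes moved with PomcGFP too: the average of 8 of them was 9.87 to 10.00 on the PomcGFP arrays, 8.09 to 8.20 in kiTbr2GFP and 8.71 to 9.28 in tgTbr2GFP, against 8.52 to 8.77 in NesGFP. Against the Tbr2 lines 5 of these 8 were higher in PomcGFP, as were 2 of 5 oligodendrocyte and 3 of 6 microglia genes. The share higher over all genes was 2.0%. The part of these lists in the levels of Cacna1e, Scn3b, Scn8a and Cacna1d was not tested.

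Cacna1a and Cacna1b are the P/Q-type and N-type pores of fast transmitter release. Cacna1a averaged 7.85 ± 0.02 in PomcGFP (SD, n = 2), 7.61 ± 0.06 in kiTbr2GFP and 7.84 ± 0.05 in tgTbr2GFP (SD, n = 3 each), against 7.21 ± 0.15 in NesGFP (SD, n = 3). Cacna1b averaged 7.72 ± 0.07 in PomcGFP (SD, n = 2), 7.50 ± 0.04 in kiTbr2GFP and 7.65 ± 0.10 in tgTbr2GFP (SD, n = 3 each), against 6.97 ± 0.02 in NesGFP (SD, n = 3). Both were higher in the Tbr2 lines than in NesGFP (limma adjusted p 0.000586 and 9.65e-05), and PomcGFP overlapped the Tbr2 lines, with differences of 0.13 and 0.14 (limma adjusted p 0.788 and 0.679). The 95% intervals of these differences ran from -0.10 to 0.36 and from -0.07 to 0.35.

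Of the T-type pores, which open near rest and favour burst firing, Cacna1g was higher in the Tbr2 lines than in NesGFP by 0.61 ± 0.11 (SE; limma adjusted p 0.000705). It averaged 7.85 ± 0.20 in PomcGFP (SD, n = 2), 7.84 ± 0.08 in kiTbr2GFP and 7.36 ± 0.21 in tgTbr2GFP (SD, n = 3 each), against 6.98 ± 0.03 in NesGFP (SD, n = 3). Cacna1g was 1 of 2 channel genes with kiTbr2GFP above tgTbr2GFP at an unadjusted limma p under 0.05; the difference of 0.49 ± 0.13 did not pass after adjustment (limma adjusted p 0.122). Cacna1h passed the F test (limma adjusted p 0.0361), with line means of 7.45 in PomcGFP, 6.88 in kiTbr2GFP and 7.10 in tgTbr2GFP, against 7.26 in NesGFP. Cacna1i, with line means from 5.97 to 6.22, did not pass (limma adjusted p 0.304).

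Of the 4 alpha2delta genes, 3 were higher and 1 lower in the Tbr2 lines than in NesGFP, where 19.8% of all genes were higher and 29.1% lower. In PomcGFP 1 was lower than in the Tbr2 lines, where 1.73% of all genes were. Cacna2d1, the alpha2delta bound by gabapentin, was 9.80 and 9.75 in PomcGFP, 9.61, 9.37 and 9.61 in kiTbr2GFP and 10.00, 10.31 and 9.92 in tgTbr2GFP, against 7.53, 6.26 and 7.63 in NesGFP. All arrays of the other lines lay far above those of NesGFP. The Tbr2 lines exceeded NesGFP by 2.67 ± 0.25 (SE), a 6.35-fold difference with a limma adjusted p of 5.35e-06, while PomcGFP and the Tbr2 lines differed by -0.03 ± 0.29 (limma adjusted p 0.997). Both Cacna2d1 probe sets were higher in the Tbr2 lines than in NesGFP, by 2.67 and 3.89. On the second of them kiTbr2GFP averaged 9.03 and tgTbr2GFP 10.02, a difference of -0.99 that passed among all probe sets (limma adjusted p 0.0471).

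Cacna2d2, whose loss causes ataxia and seizures in ducky mice, was 7.14 and 7.25 in PomcGFP, 8.31, 8.50 and 8.47 in kiTbr2GFP and 8.46, 9.56 and 9.26 in tgTbr2GFP, against 7.79, 7.92 and 7.46 in NesGFP. Every Tbr2 array was above every other array, and the PomcGFP arrays were the lowest of the 11. It was higher in the Tbr2 lines than in NesGFP by 1.04 ± 0.20 (SE; limma adjusted p 0.00122), and PomcGFP was below the Tbr2 lines by a difference of -1.57 ± 0.23 (limma adjusted p 0.00313). Without the first PomcGFP array that difference was -1.51 with a limma adjusted p of 0.0621, in a fit where PomcGFP is 1 array and is assumed to vary like the other lines. Cacna2d2 was the 1 channel gene of the 31 that was higher in the Tbr2 lines than in NesGFP and lower in PomcGFP than in the Tbr2 lines, a pattern held by 0.871% of all genes. Markers of Cajal-Retzius cells, early-born neurons that express Eomes during development, were among the lists that ran the same way: the average of 5 of them, a list chosen after its values were seen, was 6.76 to 7.05 on the PomcGFP arrays, 7.98 to 8.05 in kiTbr2GFP and 8.23 to 8.96 in tgTbr2GFP, against 6.73 to 7.16 in NesGFP. Of the 5, 4 were higher in the Tbr2 lines than in NesGFP and 2 were lower in PomcGFP than in the Tbr2 lines, among them Reln (-2.61, limma adjusted p 0.000359) and Ndnf (-3.10, limma adjusted p 0.00043). The 6 intermediate progenitor genes, whose average is given above, ran that way too, with 6 higher in the Tbr2 lines than in NesGFP and 3 lower in PomcGFP than in the Tbr2 lines. So did 6 dividing cell genes, with 4 higher and 5 lower, and an average of 6.73 to 6.81 in PomcGFP, 8.98 to 9.29 in kiTbr2GFP and 7.86 to 7.97 in tgTbr2GFP, against 6.53 to 6.94 in NesGFP. Of all genes 19.8% were higher in the Tbr2 lines than in NesGFP. In PomcGFP 1.73% of all genes were lower than in the Tbr2 lines. The part of these 3 lists in the Cacna2d2 levels was not tested.

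Cacna2d3 was 8.60 and 8.36 in PomcGFP, 7.92, 7.76 and 8.20 in kiTbr2GFP and 8.88, 8.89 and 8.72 in tgTbr2GFP, against 7.38, 7.74 and 6.68 in NesGFP. The 4 lines kept apart, with tgTbr2GFP the highest. Compared with NesGFP the Tbr2 lines were higher by 1.12 ± 0.20 (SE; limma adjusted p 0.000547). The difference of kiTbr2GFP minus tgTbr2GFP, -0.87 ± 0.23, had the lowest adjusted p of any channel gene in that comparison and did not pass (limma adjusted p 0.117). Without the third NesGFP array it was the same with a limma adjusted p of 0.0138. Here too NesGFP enters only through the pooled spread, with an SD of 0.54. Cacna2d4, the retinal alpha2delta, went against the other three: it averaged 6.95 ± 0.08 in PomcGFP (SD, n = 2), 6.84 ± 0.14 in kiTbr2GFP and 6.79 ± 0.10 in tgTbr2GFP (SD, n = 3 each), against 7.30 ± 0.21 in NesGFP (SD, n = 3). The Tbr2 lines were below NesGFP by a difference of -0.48 ± 0.11 (limma adjusted p 0.00405).

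The promoter windows of the 3 alpha2delta genes that were higher in the Tbr2 lines are shown because these genes differed together, and that of Cacna1e because it differed elsewhere. Each runs from 250 bases before to 50 after a transcript start in RefSeq's GRCm38.p6 tables, 5′ to 3′ on the gene's strand. Matches to GGGCGG on either strand, the letters of a GC box, are in capitals. A match that overlaps the one before it was neither marked nor counted. The windows are chr5:15934441-15934740 (plus strand) for Cacna2d1, chr9:107399630-107399929 (plus) for Cacna2d2, chr14:29721815-29722114 (minus) for Cacna2d3 and chr1:154725871-154726170 (minus) for Cacna1e.
Cacna2d1: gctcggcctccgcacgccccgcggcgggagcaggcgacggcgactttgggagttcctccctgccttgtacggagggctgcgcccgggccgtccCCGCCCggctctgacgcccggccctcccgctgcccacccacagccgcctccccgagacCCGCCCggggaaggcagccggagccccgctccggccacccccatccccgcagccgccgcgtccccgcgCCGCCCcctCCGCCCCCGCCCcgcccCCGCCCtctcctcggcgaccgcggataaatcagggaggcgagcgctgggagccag
Cacna2d2: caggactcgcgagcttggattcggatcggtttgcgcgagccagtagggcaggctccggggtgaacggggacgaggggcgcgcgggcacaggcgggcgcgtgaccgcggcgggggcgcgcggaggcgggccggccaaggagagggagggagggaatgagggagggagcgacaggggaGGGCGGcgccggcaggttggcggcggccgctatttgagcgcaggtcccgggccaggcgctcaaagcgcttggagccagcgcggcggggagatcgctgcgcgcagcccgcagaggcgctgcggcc
Cacna2d3: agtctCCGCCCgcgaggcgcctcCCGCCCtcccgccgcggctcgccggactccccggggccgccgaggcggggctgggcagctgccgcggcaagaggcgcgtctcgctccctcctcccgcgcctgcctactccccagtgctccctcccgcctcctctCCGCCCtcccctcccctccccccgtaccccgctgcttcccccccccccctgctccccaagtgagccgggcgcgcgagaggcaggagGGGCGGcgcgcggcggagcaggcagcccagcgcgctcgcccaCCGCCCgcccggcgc
Cacna1e: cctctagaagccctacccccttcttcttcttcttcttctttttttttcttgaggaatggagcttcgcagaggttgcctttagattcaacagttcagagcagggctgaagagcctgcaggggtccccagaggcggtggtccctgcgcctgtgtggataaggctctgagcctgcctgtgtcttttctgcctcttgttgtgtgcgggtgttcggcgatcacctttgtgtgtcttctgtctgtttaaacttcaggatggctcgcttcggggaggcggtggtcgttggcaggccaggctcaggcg
The alpha2delta windows held 42, 43 and 41 CpG pairs and 6, 1 and 5 non-overlapping GC boxes in the order shown. The Cacna1e window held 11 CpG pairs and 0 GC boxes. These 3 are dense in CpG beside a median of 11 over the windows of all channel genes and of 7 over all RefSeq windows.

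Windows were found for 27 of the 35 channel genes (37 windows, since some genes have several starts) among 32851 of the same 300 bases. GGGCGG on either strand was in 37.8% of the channel windows and in 35.7% of all windows. The E-box letters CAGCTG, which are their own reverse complement, were in 35.1% of the channel windows and in 16.3% of all, and the E-box letters CAGATG on either strand were in 16.2% and 17.2%. TATAAA on either strand was in 5.41% of the channel windows, those of Cacna1d and Scn2a, and in 13.6% of all. REST, a repressor of neuronal genes in other cells, is known from a site near Scn2a: its half-site letters TTCAGCACC and GACAGCGCC, searched on both strands, were in 0 of the channel windows and in 0.371% and 0.326% of all windows. At shares so low, 0 matches in 37 windows were likely in any case. A site outside the windows would be missed, so the 0 does not show that sites are absent. These searches used exact letters, the motifs do not overlap each other, and a match describes the letters alone.

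Of the calcium channel beta genes, Cacnb4, a brain beta subunit lost in the ataxic lethargic mouse, was 9.18 and 9.19 in PomcGFP, 8.73, 8.53 and 8.65 in kiTbr2GFP and 9.01, 8.80 and 8.94 in tgTbr2GFP, against 7.45, 7.86 and 7.42 in NesGFP. No NesGFP array reached the others, and both PomcGFP arrays were above all Tbr2 arrays. The difference of the Tbr2 lines from NesGFP was 1.20 ± 0.11 (SE; limma adjusted p 5.61e-06), and the difference between PomcGFP and the Tbr2 lines, 0.41 ± 0.13, did not pass (limma adjusted p 0.14). Cacnb1, the beta subunit of skeletal muscle that is also made in brain, ran the other way between the Tbr2 lines and NesGFP, with a difference of -0.45 ± 0.12 (limma adjusted p 0.0107). Its levels were 8.17 and 7.70 in PomcGFP, 7.48 to 7.68 in kiTbr2GFP and 7.44 to 7.70 in tgTbr2GFP, against 7.93 to 8.20 in NesGFP. Without the first NesGFP array the difference was -0.36 with a limma adjusted p of 0.0543, and with array weights -0.39 with a limma adjusted p of 0.0688. Cacnb2 had line means from 6.65 to 6.84 and did not pass the F test (limma adjusted p 0.402).

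Among the gamma genes 1 of 6 TARPs (16.7%) was higher and 2 (33.3%) were lower in the Tbr2 lines than in NesGFP, and 3 did not pass. These shares lay near the 19.8% higher and 29.1% lower over all genes. Cacng2, stargazin, was 8.66 and 9.01 in PomcGFP, 8.54, 8.27 and 8.65 in kiTbr2GFP and 9.10, 8.70 and 8.69 in tgTbr2GFP, against 7.31, 8.46 and 7.16 in NesGFP. A single NesGFP array fell inside the kiTbr2GFP range and the other two were well below. The Tbr2 lines exceeded NesGFP by 1.02 ± 0.25 (SE; limma adjusted p 0.00518), and PomcGFP exceeded NesGFP by 1.19 ± 0.32 (limma adjusted p 0.0115), which without the second PomcGFP array was 1.02 with a limma adjusted p of 0.1.

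Cacng7, a type II TARP, and Cacng4, a type I TARP, were lower in the Tbr2 lines than in NesGFP. Cacng7 averaged 9.30 ± 0.07 in PomcGFP (SD, n = 2), 9.09 ± 0.22 in kiTbr2GFP and 8.66 ± 0.22 in tgTbr2GFP (SD, n = 3 each), against 9.59 ± 0.23 in NesGFP (SD, n = 3), and the Tbr2 lines minus NesGFP were -0.72 ± 0.14 (SE; limma adjusted p 0.00108). Cacng4 averaged 7.95 ± 0.04 in PomcGFP (SD, n = 2), 7.94 ± 0.18 in kiTbr2GFP and 7.91 ± 0.21 in tgTbr2GFP (SD, n = 3 each), against 8.49 ± 0.44 in NesGFP (SD, n = 3). Its difference between the Tbr2 lines and NesGFP was -0.57 ± 0.17 (limma adjusted p 0.0175), though its F test did not pass (limma adjusted p 0.0846). The call rested on the first NesGFP array, without which it was -0.32 with a limma adjusted p of 0.0822, and it was -0.44 with a limma adjusted p of 0.0565 after cyclic loess. Cacng4 lies between Cacng1 and Cacng5 in a row of 3 adjacent genes on chromosome 11, and Cacng7 next to Cacng8 on chromosome 7 (GRCm38.p6).

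Cacng3, Cacng5 and Cacng8 did not pass the F test. Cacng3 lay at 7.74 to 7.86 in PomcGFP, 5.54 to 6.18 in kiTbr2GFP and 6.30 to 7.60 in tgTbr2GFP, against 5.83 to 8.27 in NesGFP, the widest scatter within a line of any TARP. Cacng8, a TARP of the hippocampus, averaged 8.21 ± 0.15 in PomcGFP (SD, n = 2), 7.49 ± 0.15 in kiTbr2GFP and 7.76 ± 0.16 in tgTbr2GFP (SD, n = 3 each), against 8.18 ± 0.68 in NesGFP (SD, n = 3). Both were lower in the Tbr2 lines than in NesGFP once the third NesGFP array was left out, by a difference of -1.34 for Cacng3 (limma adjusted p 0.00583) and of -0.89 for Cacng8 (limma adjusted p 0.00178). Cacng5, a type II TARP, had line means from 8.17 to 8.63, and its difference without that array was -0.49 (limma adjusted p 0.0351). Cacng1, the gamma subunit of skeletal muscle, had line means from 7.02 to 7.32 and did not pass either (limma adjusted p 0.395).

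**Figure D4:**
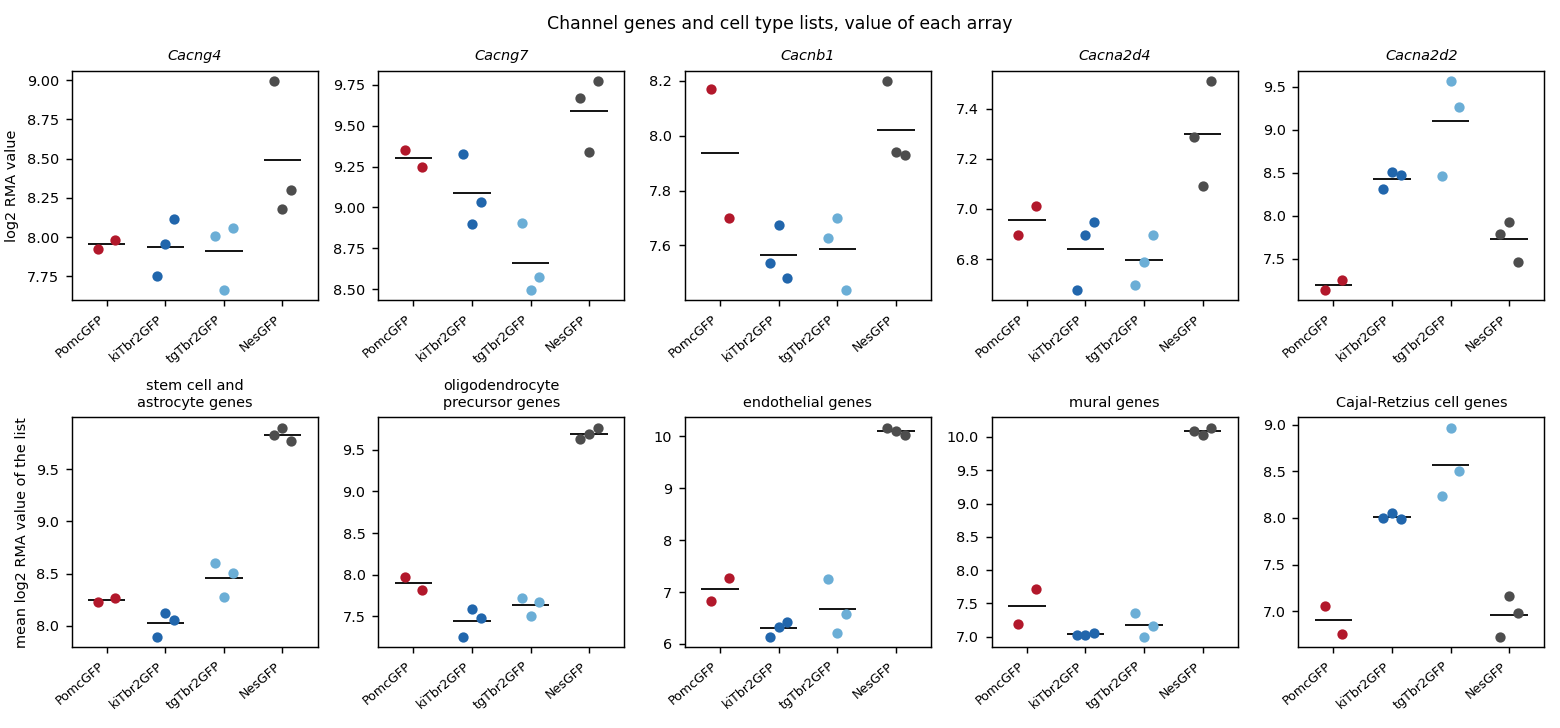
Log2 RMA level by array of the 4 channel genes lower in the Tbr2 lines than in NesGFP and of Cacna2d2 (top), and the average log2 level of 5 cell type lists on the same arrays (bottom), each on its own axis. The endothelial and mural lists stand between 10.03 and 10.16 in NesGFP and under 8 elsewhere, and the 4 lower channel genes are highest on average in NesGFP. Cacna2d2 and the Cajal-Retzius list, which was chosen after its values were seen, are highest in the Tbr2 lines. The intermediate progenitor, dividing cell and immature neuron lists, not plotted, are highest there too.

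The 4 channel genes that were lower in the Tbr2 lines, Cacng7, Cacng4, Cacna2d4 and Cacnb1, sat beside glial and vessel genes that were lower there too. Not every list ran that way. Of 6 microglia genes 1 was lower there, and of 8 mature granule neuron genes 3 were lower and 3 higher. Over all genes 29.1% were lower there and 19.8% higher. In PomcGFP against NesGFP the 10 stem cell and astrocyte, 6 oligodendrocyte precursor, 7 endothelial and 7 mural genes were all lower, where 24.0% of all genes were. Of 5 oligodendrocyte genes 3 were lower there. Among 6 microglia genes 0 were lower and 3 higher, and among 8 mature granule neuron genes 0 were lower and 6 higher. The share higher over all genes was 15.9%. The 4 channel genes did not pass there, with differences of -0.29, -0.54, -0.34 and -0.09 in the order named (limma adjusted p 0.215, 0.077, 0.0816 and 0.694). The 10 stem cell and astrocyte genes had an average level of 8.23 to 8.26 on the PomcGFP arrays, 7.90 to 8.12 in kiTbr2GFP and 8.28 to 8.60 in tgTbr2GFP, against 9.77 to 9.90 in NesGFP. The 6 oligodendrocyte precursor genes averaged 7.82 to 7.97 in PomcGFP, 7.25 to 7.58 in kiTbr2GFP and 7.50 to 7.72 in tgTbr2GFP, against 9.64 to 9.76 in NesGFP. None of the 10 stem cell and astrocyte genes was under the 25th percentile on all NesGFP arrays, and 1 was so on all PomcGFP arrays. Whether those cells carried the 4 channel genes was not tested.

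The 2 Tbr2 lines were compared directly. By limma 0 of the 31 channel genes were higher and 0 lower in kiTbr2GFP than in tgTbr2GFP, where 0.436% of all genes were higher and 0.684% lower. At an unadjusted p under 0.05 2 were higher, Cacna1g and Cacng7, and 5 lower, Cacna1e, Cacna2d2, Cacna2d3, Scn2b and Scn3b. The median difference was -0.19 over the channel genes and 0.02 over all genes. With array weights, 2 passed as higher and 8 as lower.

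Each Tbr2 line was also set against NesGFP by itself. In kiTbr2GFP 14 channel genes were higher and 6 lower, where 18.2% and 27.0% of all genes were, and in tgTbr2GFP 16 were higher and 4 lower, where 15.8% and 25.8% were. Cacna1e and Scn3b passed in tgTbr2GFP, with differences of 0.82 ± 0.23 (SE; limma adjusted p 0.012) and 0.49 ± 0.15 (limma adjusted p 0.022), and had 0.11 ± 0.23 and 0.05 ± 0.15 in kiTbr2GFP. Cacna1h and Scn2b were lower in kiTbr2GFP, with differences of -0.38 ± 0.13 (limma adjusted p 0.0371) and -0.50 ± 0.15 (limma adjusted p 0.0175), and had -0.16 ± 0.13 and 0.02 ± 0.15 in tgTbr2GFP. The direct test between the Tbr2 lines did not pass for any of these 4 genes.

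PomcGFP was set against each Tbr2 line in the same way. Against kiTbr2GFP 4 channel genes were higher and 1 lower, where 2.90% and 1.98% of all genes were, and against tgTbr2GFP 1 was higher and 1 lower, where 0.545% and 0.823% were. The gene higher against both lines was Cacna1e, by 2.0 ± 0.25 (SE; limma adjusted p 0.000835) over kiTbr2GFP and by 1.29 ± 0.25 (limma adjusted p 0.0316) over tgTbr2GFP. The gene lower against both was Cacna2d2, with differences of -1.23 ± 0.26 (limma adjusted p 0.0187) from kiTbr2GFP and of -1.90 ± 0.26 (limma adjusted p 0.00602) from tgTbr2GFP. Scn3b, Scn8a and Cacna1d exceeded kiTbr2GFP by 1.06, 0.73 and 0.64 (limma adjusted p 0.00348, 0.0122 and 0.0112), and their differences from tgTbr2GFP, 0.62, 0.59 and 0.47, did not pass (limma adjusted p 0.136, 0.0882 and 0.123). When either PomcGFP array was left out, which leaves 1 array assumed to vary like the other lines, the differences of these 3 from both Tbr2 lines together stayed between 0.52 and 0.86, with limma adjusted p between 0.077 and 0.219.

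Genes whose proteins anchor or tune these channels were counted from 3 lists. Of 12 measured partners of sodium channels and of the related leak channel, 5 were higher and 1 lower in the Tbr2 lines than in NesGFP. The shares over all genes were 19.8% higher and 29.1% lower. The larger rises were in Unc79, a leak channel subunit (1.10 ± 0.19, SE; limma adjusted p 0.000623), Ank3, ankyrin-G of the axon initial segment (0.90 ± 0.10, SE; limma adjusted p 1.31e-05), and Nedd4l, a ubiquitin ligase (0.80 ± 0.11, SE; limma adjusted p 0.000112). Nfasc, neurofascin of axons and of myelinating glia, was the 1 lower, with a difference of -1.90 ± 0.11 (limma adjusted p 1.36e-07). In PomcGFP against the Tbr2 lines 3 of the 12 were higher and 0 lower (4 and 0 at an unadjusted limma p under 0.05): Fgf14 and Fgf13, intracellular factors that bind the sodium channel tail, by 1.39 ± 0.18 and 1.36 ± 0.24 (limma adjusted p 0.00135 and 0.00943), and Unc80 by 0.70 ± 0.15 (limma adjusted p 0.0272). In that comparison 2.0% of all genes were higher and 1.73% lower. Against NesGFP PomcGFP had 8 of the 12 higher, led by Fgf14 (1.62), Unc79 (1.32) and Ank3 (1.15), and Nfasc lower (-1.78). There 15.9% of all genes were higher and 24.0% lower.

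Of 11 measured partners of calcium channels, 2 (18.2%) were higher and 1 lower in the Tbr2 lines than in NesGFP, a share near the 19.8% higher over all genes. The higher ones were Rims2 and Rims1, active zone proteins that tether the presynaptic pores, by 1.15 ± 0.12 and 0.55 ± 0.19 (SE; limma adjusted p 1.12e-05 and 0.0317). The lower one was Gem, a small GTPase that inhibits calcium channels, with a difference of -0.83 ± 0.21 (limma adjusted p 0.00608). PomcGFP also had 2 higher, near the 15.9% of all genes, and 1 lower against NesGFP: Rims1 at 1.23, Rims2 at 1.11 and Gem at -1.62. Between PomcGFP and the Tbr2 lines 0 of the 11 passed by limma, where 2.0% of all genes passed as higher and 1.73% as lower. At an unadjusted limma p under 0.05, 2 of the 11 were higher and 1 lower.

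Genes of calcium release from internal stores and of store-operated entry, supply calcium by routes other than voltage-gated channels. Of 10 measured, 1 was higher and 5 lower in the Tbr2 lines than in NesGFP, where 19.8% of all genes were higher and 29.1% lower. Ryr3, a ryanodine receptor, was higher by 0.75 ± 0.13 (SE; limma adjusted p 0.000583). Itpr2, an IP3 receptor of astrocytes, Stim1, the store sensor, and Orai1, the store-operated pore, were lower, with differences of -1.49 ± 0.18, -0.99 ± 0.16 and -0.64 ± 0.12 (limma adjusted p 3.3e-05, 0.000274 and 0.00117). In PomcGFP against the Tbr2 lines 3 were higher: Ryr2 by 2.21 ± 0.27, Stim2 by 0.87 ± 0.12 and Ryr3 by 0.83 ± 0.15 (limma adjusted p 0.000908, 0.00256 and 0.0103). The shares over all genes there were 2.0% higher and 1.73% lower. Ryr2 was also lower in kiTbr2GFP than in tgTbr2GFP, with a difference of -1.50 ± 0.27 (limma adjusted p 0.0223). Against NesGFP PomcGFP had 3 higher, Ryr2 (2.28), Ryr3 (1.57) and Stim2 (0.67), and 3 lower, Itpr2 (-1.15), Stim1 (-0.93) and Orai1 (-0.58). Of all genes 15.9% were higher and 24.0% lower in that comparison.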

How the data were processed

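RNA of sorted cells was measured on 11 arrays. The deposited table holds 1 log2 value per probe set and array, which the authors made with RMA and oligo (no version given) per the submitters' processing notes; that the scale is log2 follows from RMA and from the range of the values. The genome build behind the array annotation is not given in the sources used here. Of 28858 probe sets, 21789 had 1 symbol (21698 matched a RefSeq gene by number), 1621 several and 5448 none; the last 2 kinds were left out.

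A probe set was kept when above the 25th percentile of its array on at least 2 arrays, and the one with the highest mean stood for its gene. All 31 channel genes kept were above that percentile on at least 1 array of every line. A linear model with 1 mean per line was fitted in limma 3.58.1 (R 4.3.3) to the 11 arrays (7 residual and 4.22 prior degrees of freedom), adjusted over 16527 genes. The fits were tried on simulated data with normal noise of equal spread in every line. That trial does not cover genes whose spread differs between lines, as for Scn2a and Cacng3.

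The channel genes and all lists were chosen with earlier results of these data known. All channel genes are named; arrays are given singly for those past the F test whose line means span over 1 log2 unit. From partner lists up to 3 genes per direction are named, and from cell type lists up to 2.

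Alternatives were no filter, a filter at the 50th percentile, the mean of a gene's probe sets, cyclic loess, centring arrays on their median, a trended robust prior, array weights, a replicate block, a fit of the groups compared, each Tbr2 line alone, and leaving out each array. Testing probe sets singly and centring on the median of the genes kept were chosen after seeing the data. No protein sequences were used. Figures used Python 3.11.15, pandas 2.3.3, numpy 2.4.6 and matplotlib 3.10.9.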

Additional observations from a re-analysis of the deposited data

Results flagged for a closer look

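Cacna2d2, an alpha2delta subunit gene, stood out because the Tbr2 lines and PomcGFP lay on opposite sides of NesGFP. PomcGFP minus the Tbr2 lines was -1.57 (limma adjusted p 0.00313), a difference tested directly. PomcGFP minus NesGFP, -0.53, did not pass (limma adjusted p 0.13), with both PomcGFP arrays below all 3 NesGFP arrays. The cause was not tested.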

How the results depend on the processing

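Of the calls on channel genes, 16 of 18 in the Tbr2 lines against NesGFP (all but Cacnb1 and Cacng4), 14 of 15 in PomcGFP against NesGFP (all but Cacng2) and 1 of 5 in PomcGFP against the Tbr2 lines (Cacna1e) held under every alternative run for them, and none reversed. The number lower in the Tbr2 lines than in NesGFP, 4, ran from 2 (without the first NesGFP array) to 7 (without the third) when single arrays were left out. The number higher in PomcGFP than in the Tbr2 lines, 4, was 11 with array weights, 8 in a fit of the groups compared, 1 against tgTbr2GFP alone, and 1 to 6 with single arrays left out, 1 without either PomcGFP array, when the line has 1 array assumed to vary like the others. The number lower there, 1, was 0 without the first PomcGFP array and 0 to 1 over all arrays left out. The number lower in PomcGFP than in NesGFP, 0, was 1 after cyclic loess, 2 with arrays centred on their median, and 0 to 2 with single arrays left out, 2 without the second NesGFP or the first tgTbr2GFP array. In kiTbr2GFP against tgTbr2GFP, 0 higher and 0 lower became 2 and 8 with array weights. The number lower there was 1 with the mean of a gene's probe sets (Scn2a), 1 in a fit of the groups compared (Cacna2d3) and 0 to 1 with single arrays left out, 1 without the third NesGFP (Cacna2d3) or the first tgTbr2GFP array (Cacna2d2). With a replicate block, 16 were higher and 5 lower in the Tbr2 lines than in NesGFP; no call was lost. The labels do not say that a shared number marks shared material: over 15 same-numbered pairs, the correlation of deviations from line means ran from -0.106 to 0.262, and 4 were over 0.1, all 3 pairs of arrays numbered 3 and the kiTbr2GFP and tgTbr2GFP arrays numbered 1. Beyond the pooled spread described for Scn2a and Cacna2d3, the causes were not tested.

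Over all genes, array weights moved the calls in kiTbr2GFP against tgTbr2GFP to 561 higher and 832 lower, from 72 and 113, and in PomcGFP against the Tbr2 lines to 825 and 799, from 331 and 286. A fit of the groups compared gave 524 and 498 there, and 1658 and 2824 in place of 2624 and 3967 in PomcGFP against NesGFP. The share of calls higher in the Tbr2 lines than in NesGFP was 40.5%, 53.5% with arrays centred on the median of the genes kept (chosen after seeing the data) and 33.4% with arrays centred on their median; in PomcGFP against NesGFP it was 39.8%, 49.8% and 31.7%. Every comparison with PomcGFP rests on 2 arrays of that line. With the filter at the 50th percentile 26 channel genes were left, among 12321 genes.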
